A study of Mus musculus with 6 samples.

Results

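Antisense_RNA is the gene type that the annotation gives to noncoding RNA genes lying across a gene on the opposite DNA strand. The rows of this type numbered 171 of the 3201 genes in the table of values for mouse livers after ischemia-reperfusion (I/R), and they were taken by that type alone. RNA-seq of whole livers was compared between 3 male Fgf18 f/f mice, whose fibroblast growth factor 18 gene (Fgf18) carries loxP sites, and 3 male Fgf18△HSC mice, in which a GFAP promoter drives Cre to remove the floxed gene from hepatic stellate cells (HSCs), the pericytes of the liver sinusoid that store vitamin A. The first are called controls and the second knockouts below. All 6 mice, on a C57BL/6 background and of an age that the sources used here do not give, underwent 1 h of partial warm ischemia and 6 h of reperfusion, so that there is no sham group. The genotype label of the knockout livers names the genotype, and that of the control livers gives the treatment. For each antisense RNA gene, the overlapping protein-coding gene on the other strand, the sense partner, was found in the GRCm38 annotation, and the direction of the pair was compared. Overlapping sense partners were found for 160 of the 171 genes, 9 had none and 2 were not in the annotation used.

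RNA polymerase II transcribes many loci on both strands. The antisense transcript can start from the promoter region of the sense gene and run the other way (head to head), run into its 3′ end (tail to tail), or lie wholly inside it. Some antisense RNAs are known regulators, such as Kcnq1ot1, which silences neighbouring genes on the paternal chromosome, while many are short-lived and have no known function. Because both strands hold the same base pairs, a read from the overlap belongs to one gene or the other only by its strand. The sources used here describe a library kit that marks the strand and an alignment that used it, but they do not give the strand setting with which reads were counted per gene. Without strand, reads of a gene and of its antisense partner cannot be told apart.

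The overlap is shown first by a stretch of 90 bases at the start of Gm11175, an antisense RNA gene that lies wholly inside the coding exon of Jund, a member of the AP-1 transcription factor family. The annotation places both on chr8:70699991-70700080 of GRCm38, Gm11175 on the minus strand and Jund on the plus strand, and each line is the reverse complement of the other. All 90 bases are exonic in both genes, so no letter is set in capitals.
Gm11175: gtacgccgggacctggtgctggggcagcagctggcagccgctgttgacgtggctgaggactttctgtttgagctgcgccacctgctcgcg
Jund: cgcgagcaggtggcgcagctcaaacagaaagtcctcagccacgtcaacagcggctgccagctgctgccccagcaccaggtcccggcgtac

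Head-to-head pairs are shown by the promoter windows of 3 of them, chosen because the genes of a pair moved by nearly the same amount (Junos and Jun, Igf1os and Igf1) or by unequal amounts (AC134860.4 and Ppp1r3g). The windows were taken from RefSeq on GRCm38.p6 and hold 250 bases before a transcript start and 50 from it on, written 5′ to 3′ on the strand of the gene. RefSeq gave a window for 67 of the 171 antisense RNA genes, and for both genes of 6 of the 25 head-to-head pairs with values for both. Capitals mark matches on either strand to 6 motifs, and their share was taken over all 32817 windows of this length. These were the TATA box TATAAA (in 13.6% of windows), the CCAAT box CCAAT (37.4%), the GC box GGGCGG (35.6%), the AP-1 motif TGACTCA (5.2%), the CRE motif TGACGTCA (1.79%) and the E-box CACGTG (7.15%). A match describes letters and is not a bound site.
Junos (chr4:95052067-95052366, plus strand): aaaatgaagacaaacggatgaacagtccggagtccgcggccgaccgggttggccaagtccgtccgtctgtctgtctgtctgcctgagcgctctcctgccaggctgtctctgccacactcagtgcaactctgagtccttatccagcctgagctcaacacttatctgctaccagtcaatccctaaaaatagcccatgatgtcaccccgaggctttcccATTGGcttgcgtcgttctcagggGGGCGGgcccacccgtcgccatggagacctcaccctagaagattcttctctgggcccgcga
Jun (chr4:95052173-95052472, minus strand): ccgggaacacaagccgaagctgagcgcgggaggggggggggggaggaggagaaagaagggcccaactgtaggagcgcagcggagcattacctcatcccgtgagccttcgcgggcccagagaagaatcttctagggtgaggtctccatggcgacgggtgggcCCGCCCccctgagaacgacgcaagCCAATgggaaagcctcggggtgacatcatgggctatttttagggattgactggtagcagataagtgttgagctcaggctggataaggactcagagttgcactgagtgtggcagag
Igf1os (chr10:87863344-87863643, minus strand): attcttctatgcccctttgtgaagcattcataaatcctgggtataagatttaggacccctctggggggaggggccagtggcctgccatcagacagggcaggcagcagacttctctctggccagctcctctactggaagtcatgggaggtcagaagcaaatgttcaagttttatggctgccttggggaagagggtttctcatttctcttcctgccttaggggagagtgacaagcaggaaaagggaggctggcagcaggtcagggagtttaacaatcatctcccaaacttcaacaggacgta
Igf1 (chr10:87860861-87861160, plus strand): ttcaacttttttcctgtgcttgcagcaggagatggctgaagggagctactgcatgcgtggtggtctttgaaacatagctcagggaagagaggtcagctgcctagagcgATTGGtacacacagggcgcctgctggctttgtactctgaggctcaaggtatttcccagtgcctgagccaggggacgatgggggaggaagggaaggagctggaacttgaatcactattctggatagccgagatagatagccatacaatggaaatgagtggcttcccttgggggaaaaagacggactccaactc
AC134860.4 (chr13:35964135-35964434, minus strand): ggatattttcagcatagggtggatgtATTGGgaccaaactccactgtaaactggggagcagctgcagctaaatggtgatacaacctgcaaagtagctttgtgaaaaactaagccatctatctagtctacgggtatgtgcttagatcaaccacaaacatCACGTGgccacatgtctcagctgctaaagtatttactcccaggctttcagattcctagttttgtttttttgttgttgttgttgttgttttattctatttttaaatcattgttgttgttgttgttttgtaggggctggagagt
Ppp1r3g (chr13:35967656-35967955, plus strand): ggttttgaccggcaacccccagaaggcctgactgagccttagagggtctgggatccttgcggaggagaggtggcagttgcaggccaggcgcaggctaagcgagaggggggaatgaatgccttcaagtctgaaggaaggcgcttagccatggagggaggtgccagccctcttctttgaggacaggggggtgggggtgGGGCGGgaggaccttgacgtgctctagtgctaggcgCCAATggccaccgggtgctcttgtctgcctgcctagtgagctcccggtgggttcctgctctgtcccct

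The windows of Junos and Jun overlap by 194 bases, with transcript starts 95 bases apart. Each window holds 1 CCAAT match and 1 GGGCGG match, and these lie in the shared bases, so that they are the same matches read on either strand. The starts of Igf1os and Igf1 lie 2282 bases apart, and those of AC134860.4 and Ppp1r3g 3722 bases apart, so the windows of those pairs share no base. All these are RefSeq starts, while the pairs were called head to head from the annotation used for the partners, where some starts differ. Ppp1r3g starts at 35958839 there and at 35967906 here, Igf1 at 87858265 and 87861111, and Junos at 95051534 and 95052317. By the RefSeq starts, Junos and Jun, and AC134860.4 and Ppp1r3g, run apart without overlapping. The window of Ppp1r3g has a GC content of 63% against 40.0% in that of AC134860.4, and the median over all windows was 52.7%.

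Every gene of the table had been selected by the authors for an absolute log2 fold change of at least 1 and an unadjusted p under 0.05 between these same livers. A difference between the groups is therefore what placed a gene in the table, and the counts and p-values of that contrast are a description and no independent evidence. Values were taken as TPM, reads per length of the joined exons scaled to one total per library, a unit that the sources do not name. For a gene 1 kb long, 1 read equalled 0.0374 to 0.0555 TPM in the control livers and 0.0482 to 0.0655 TPM in the knockout livers. Fold changes are on the log2(TPM + 0.1) scale, where ± gives the standard error and where the added 0.1 TPM shrinks the change of a low gene, and a gene was called at a limma adjusted p under 0.05 over the 3201 genes with an absolute log2 fold change above 1. Fgf18 itself was not analysed here, and no check of the labels by its level was made. Of the markers fixed for liver cell types, 7 of 8 HSC markers were listed, all higher in knockout livers with 5 called, and their sum was 6.42 to 8.52 TPM in control and 17.6 to 25.6 TPM in knockout livers. The sum of 3 of 6 listed sinusoidal endothelial markers was 12.0 to 14.4 against 26.5 to 38.8 TPM, all 3 called higher, that of 2 of 6 Kupffer cell and macrophage markers was 9.05 to 10.1 against 23.1 to 37.9 TPM, 1 called, that of 2 of 7 neutrophil markers, both called, was 6.16 to 7.69 against 9.80 to 27.1 TPM, and that of 4 of 5 erythroid markers was 70.9 to 116 against 396 to 539 TPM, all 4 called. Cyp2e1 was the only one of 6 hepatocyte markers listed and was called lower, 2 of 3 listed cholangiocyte markers (of 4) were higher and 1 lower, and none of the T, NK or B cell markers was listed. In whole liver, fewer cells of a type and less RNA per cell cannot be told apart, and the part of these shifts in the values below was not tested.

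Antisense RNA genes were split nearly evenly by direction. In knockout livers 90 of the 171 were higher and 81 lower, that is 52.6% higher, beside 65.1% of all listed genes, 85.7% of the 175 listed long intergenic noncoding RNA genes and 3 of the 10 listed genes of the type bidirectional promoter lncRNA. Of the 171, 76 were called higher, 71 were called lower and 24 were not called. Over all 3201 listed genes 71.7% were called, 41.6% higher and 30.0% lower, and 96.3% had groups of livers that did not overlap, as 166 of the 171 antisense RNA genes did. After median-ratio rescaling of the livers over the listed genes, which moved the median log2 fold change of all of them by -0.875, the split became 21 called higher and 81 called lower. It was 18 and 36 with a pseudocount of 1, and 36 and 59 among the 101 antisense RNA genes averaging 1 TPM or more. No antisense RNA gene changed sign in any of these 3 fits.

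The higher and the lower genes differed in level. The median over the 6 livers was 0.663 TPM among the higher genes and 2.72 TPM among the lower ones, beside 0.373 and 4.65 TPM among all listed genes. Below 1 TPM lay 70 of the antisense RNA genes, 54 of them higher in knockout livers, while 22 of the 26 genes above 10 TPM were lower. In 26 genes each control liver had at most 3 reads, in 2 genes each knockout liver had, and 15 genes had under 10 reads in every liver.

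**Figure D1:**
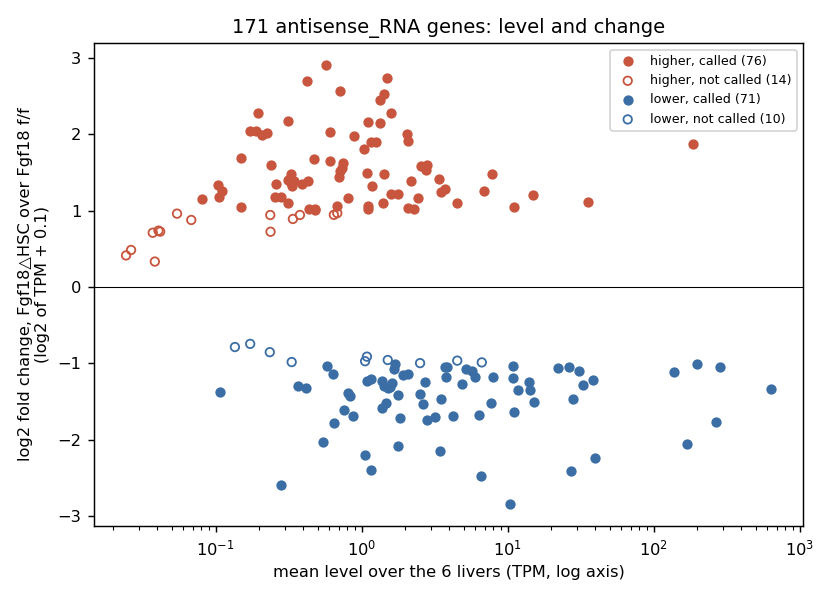
The 171 antisense RNA genes by mean level over the 6 livers (TPM, log axis) and log2 fold change of Fgf18△HSC over Fgf18 f/f livers, filled where called (76 higher, 71 lower) and open where not (14 and 10). Most genes above 10 TPM lie below the zero line, and no gene lies near it because the table was selected for a difference.

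Antisense RNA genes above 100 TPM were 7, and 6 of them were lower in knockout livers. The highest was AC164105.2 (chromosome 9, 46270035 to 46271365, minus strand), inside Apoa5, the gene of an apolipoprotein that lowers plasma triglycerides. It had 976, 903 and 867 TPM in controls and 339.6, 406 and 339.7 TPM in knockouts (log2 fold change -1.34 ± 0.12, limma adjusted p = 4.72e-05). Gm16559, opposite Adh1, an alcohol dehydrogenase of hepatocytes, had 430.3, 407 and 405 TPM in controls and 132, 113 and 118 TPM in knockouts (log2 fold change -1.78 ± 0.10, limma adjusted p = 1.33e-05). In both genes every Fgf18△HSC liver lay far below the lowest Fgf18 f/f liver.

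Gm11175 inside Jund had 453, 379 and 326 TPM in controls and 204, 164 and 187 TPM in knockouts. In Gm45507, which overlaps the mitophagy receptor gene Bnip3, the values were 266, 249 and 299.8 TPM in controls and 67.3, 72.5 and 55.9 TPM in knockouts (log2 fold change -2.06 ± 0.13, limma adjusted p = 1.67e-05). Gm28959 lies inside Abhd14b, which encodes an alpha/beta hydrolase, and had 189.8, 191 and 190.1 TPM in controls and 94.8, 85.8 and 83 TPM in knockouts. Its Fgf18 f/f livers differed by less than 2 TPM.

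Gm15883, inside the cytochrome P450 gene Cyp2f2, had 280.2, 272 and 239 TPM in controls and 146, 141 and 110.0 TPM in knockouts. Cyp2f2 is not among the listed genes. The exception to the lower values was Gm15622, inside Bhmt, the betaine-homocysteine methyltransferase gene, at 62.4, 73.3 and 106 TPM in controls and 315, 314 and 241 TPM in knockouts (log2 fold change 1.87 ± 0.20, limma adjusted p = 0.000105). Its groups did not overlap.

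Genes named after a coding gene, with the endings os, as or ot, numbered 19 and let known loci be followed. Hnf4aos (chromosome 2, 163493807 to 163541720, minus strand) starts inside Hnf4a, a master transcription factor of hepatocytes, and had 3.48, 4.52 and 3.55 TPM in controls and 1.97, 1.44 and 1.32 TPM in knockouts (log2 fold change -1.24 ± 0.19, limma adjusted p = 0.000545). Egfros, within the epidermal growth factor receptor gene, had 1.44, 1.88 and 1.39 TPM in controls and 0.724, 0.58 and 0.535 TPM in knockouts (log2 fold change -1.23 ± 0.20, limma adjusted p = 0.000703). Tbx3os1, head to head with the developmental transcription factor gene Tbx3, had 1.0, 0.95 and 0.736 TPM in controls and 0.487, 0.165 and 0.479 TPM in knockouts (log2 fold change -1.14 ± 0.33, limma adjusted p = 0.0105).

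All 3 were lower in each Fgf18△HSC liver than in any Fgf18 f/f liver, and none of Hnf4a, Egfr and Tbx3 is among the listed genes. Without knockout replicate 2 the log2 fold change of Tbx3os1 was -0.76, short of the fold limit. Ctcflos, opposite the testis paralog of the insulator protein CTCF, also fell, by 1.23 on the log2 scale, and by 0.99, short of the limit, without control replicate 3. Notumos, opposite the Wnt-inhibiting enzyme gene Notum, was at 2.19, 1.27 and 0.96 TPM in controls and 0.743, 0.517 and 0.855 TPM in knockouts and was not called (log2 fold change -0.91).

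Kcnq1ot1 (chromosome 7, 143203458 to 143296549, minus strand), the imprinted antisense RNA of the Kcnq1 domain, had 0.12, 0.156 and 0.192 TPM in controls and 0.319, 0.33 and 0.311 TPM in knockouts. The groups did not overlap, and the log2 fold change of 0.72 ± 0.20 (limma adjusted p = 0.00762) was short of the limit of 1. It rested on 299 to 616 reads per liver.

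Called higher were Rab26os, Ccdc142os, Dlx1as and Dgkeos, whose partners are not listed. Rab26os, opposite the gene of a small GTPase of vesicle traffic, had 0.752, 0.813 and 1.01 TPM in controls and 2.13, 1.84 and 1.83 TPM in knockouts, and Dlx1as, opposite a homeobox gene, had 0.252, 0.11 and 0.136 TPM in controls and 0.414, 0.602 and 0.372 TPM in knockouts. Dlx1as rested on 4 to 15 reads per liver and lost its call without control replicate 2 (log2 fold change 0.94) and without knockout replicate 2 (0.92). Without the latter, Ccdc142os (0.92) and Dgkeos (0.83) also fell short of the limit. Dgkeos had 0, 0 and 1 reads in the control livers and 4, 9 and 4 reads in the knockout livers. Tug1, a well-studied long noncoding RNA named here after its values were seen, carries the same gene type and had 1.38, 1.27 and 1.43 TPM in controls and 3.75, 4.36 and 4.34 TPM in knockouts (log2 fold change 1.54 ± 0.14, limma adjusted p = 5.59e-05).

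The largest rises among called genes of at least 1 TPM in either group were found in 8 genes. AC122465.1, inside the gene of the basement membrane protein nidogen 1 (Nid1), had 0.463, 0.334 and 0.184 TPM in controls and 2.43, 2.71 and 2.84 TPM in knockouts (log2 fold change 2.75 ± 0.26, limma adjusted p = 6.42e-05). Gm44851, head to head with Furin, a proprotein convertase, had 0.356, 0.505 and 0.216 TPM in controls and 2.46, 2.75 and 2.21 TPM in knockouts (log2 fold change 2.53 ± 0.26, limma adjusted p = 7.73e-05). Both were clear of overlap by several times the highest Fgf18 f/f value.

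The others were AV064505, AC154635.1, Gm10501, Gm26827, Prss23os and AC156802.1. In AV064505, head to head with the matrix metalloproteinase gene Mmp7, the reads were 1, 1 and 0 reads in controls and 7, 7 and 18 in knockouts. In AC154635.1, inside the endothelin 1 gene Edn1, they were 2, 0 and 2 reads in controls and 12, 5 and 12 in knockouts, and in Gm26827, opposite Chsy1, 1, 1 and 3 reads in controls and 9, 5 and 8 in knockouts. With at most 3 reads in each Fgf18 f/f liver, the fitted fold changes of these 3 genes depend on the pseudocount. AC156802.1, opposite the neuritin gene Nrn1, ranged from 1 to 9 reads in the control livers and from 9 to 37 in the knockout livers.

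The largest falls were found in Gm14097, Gm35986, Gm15962, Gm15418, Gm28513, Gm31105, 4930480G23Rik and Gm31774. Gm35986, head to head with Elovl6, a fatty acid elongase of lipogenesis, had 11.1, 13.1 and 9.31 TPM in controls and 3.0, 1.41 and 1.61 TPM in knockouts (log2 fold change -2.48 ± 0.27, limma adjusted p = 0.000106). Gm15418, opposite the collagen gene Col4a1, had 1.43, 1.79 and 2.87 TPM in controls and 0.214, 0.29 and 0.373 TPM in knockouts, on 3 to 5 reads in the knockout livers. Gm31774, opposite the steroid dehydrogenase gene Hsd17b2, had 3.5, 2.96 and 2.19 TPM in controls and 0.706, 1.05 and 0.259 TPM in knockouts and Gm31105, opposite the signalling adaptor gene Gab1, 1.79, 1.7 and 1.7 TPM in controls and 0.0702, 0.381 and 0.662 TPM in knockouts.

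4930480G23Rik (chromosome 4, 19979445 to 19985388, minus strand), which overlaps no protein-coding gene, had 5.24, 6.25 and 5.65 TPM in controls and 1.19, 1.55 and 0.948 TPM in knockouts (log2 fold change -2.15 ± 0.19, limma adjusted p = 4.91e-05). Elovl6, Col4a1, Hsd17b2 and Gab1 are not among the listed genes, so nothing is given for the other strand there. The remaining 3 genes are described with their partners below.

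Antisense and sense genes moved in the same direction in nearly all pairs for which both had values. The 160 antisense RNA genes with an overlapping coding gene made 184 pairs, and in 100 pairs, of 97 antisense and 96 sense genes, the sense gene was listed too. In 51 of these pairs both genes were higher in knockout livers, in 47 both were lower, and in 2 the directions were opposite. Both genes were called in 78 pairs, 40 with both higher, 37 with both lower and 1 in opposite directions, while the antisense gene alone was called in 9, the sense gene alone in 10 and neither in 3. Of the 96 sense genes 45 were called higher and 39 lower, and 7 and 45 after the rescaling. A pair enters this count only if both genes passed the selection of the table, so the count leaves out every pair in which the sense gene did not differ.

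Other neighbours in the table were counted in the same way. Of 54 pairs of listed coding genes that overlap on opposite strands, 49 had the same direction. Of the 97 antisense genes with a listed partner, 59 had the same direction as the nearest listed coding gene that does not overlap them, at a median distance of 250.2 kb.

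**Figure D2:**
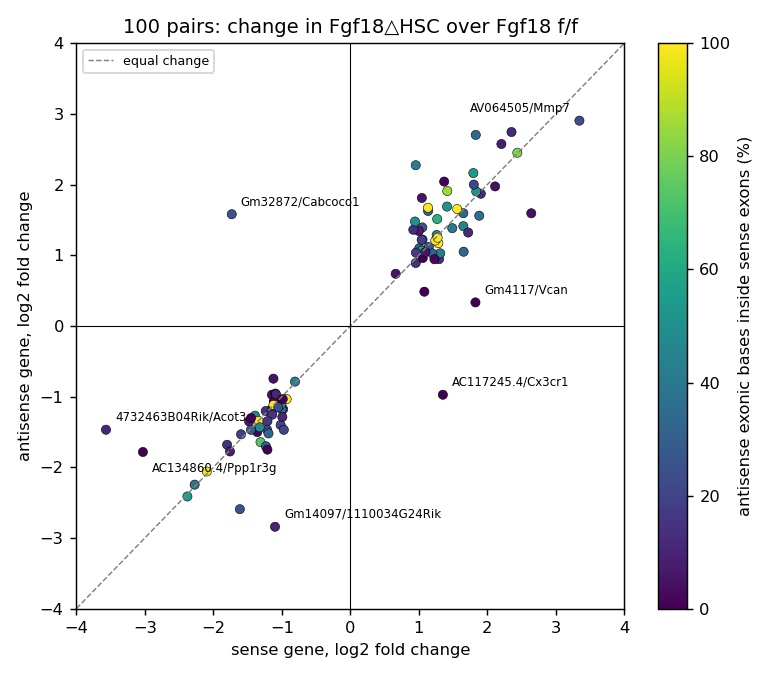
Log2 fold change of the antisense gene against that of its sense partner in 100 pairs, coloured by the percentage of antisense exonic bases inside exons of the sense gene. 98 pairs lie in the lower left or upper right quadrant, most near the dashed line of equal change, and Gm32872/Cabcoco1 and AC117245.4/Cx3cr1 lie in the others.

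The changes of the pair were also close in size. The log2 fold changes of the 2 genes differed by a median of 0.145, by less than 0.2 in 58 pairs and by more than 1 in 8. Across pairs the Pearson correlation was 0.916 over all 100, and 0.646 and 0.486 within the 51 higher and 47 lower pairs, which share the livers and often the overlapping bases.

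The level of the antisense gene relative to the sense gene went with the exonic overlap. In 91 pairs at least 1 exonic base of the antisense gene lay inside an exon of the sense gene, and in 9 pairs none did. The median ratio of antisense to sense TPM was 0.0660 in the 9 pairs that share none, 0.186 in 16 pairs with up to 10% of the antisense exonic bases inside sense exons, 0.553 in 33 pairs with 10 to 30%, 0.896 in 28 pairs with 30 to 60% and 1.59 in 14 pairs above 60%. The antisense gene had the higher TPM in 11 of the 14 pairs above 60%, in 1 of the 9 without shared bases and in 30 of all 100. The Spearman correlation across the 100 pairs was 0.676 between overlap and ratio.

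In the same 5 classes the median difference between the log2 fold changes was 0.540, 0.157, 0.178, 0.147 and 0.0658, and the Spearman correlation of overlap with this difference was -0.317. On the log2(TPM + 0.1) scale, differences above 1 were found in 3 of the 9 pairs without shared exonic bases and in none of the 14 above 60%. Those 3 pairs, with Cx3cr1, Ppp1r3g and Vcan, had a gene with as few as 1, 3 and 18 reads in a liver. Gm19950 and Acsm1, with no shared base and at least 258 reads, had log2 fold changes of -1.07 and -1.11. Rapgef4os3 and Rapgef4, also with no shared base and at least 65 reads, lay further apart, at -1.75 and -1.21. The part of read depth in the differences between the classes was not tested. By arrangement, the median ratio was 0.207 in 25 head-to-head pairs, 0.822 in 26 tail-to-tail pairs and 0.820 in 46 pairs with the antisense gene inside the sense gene. Where most of the shared bases lay beyond the coding sequence on its 3′ side the median ratio was 0.913 (22 pairs), where they lay in coding sequence 0.736 (53 pairs), and where they lay on its 5′ side 0.348 (12 pairs).

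**Figure D3:**
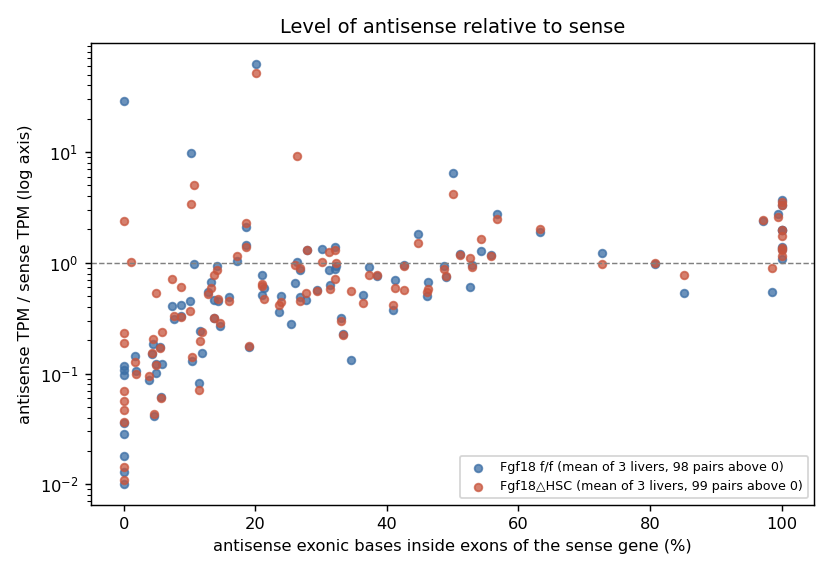
Ratio of antisense to sense TPM (log axis, mean of 3 livers per group) against the percentage of antisense exonic bases inside exons of the sense gene, for the pairs with a ratio above 0. The ratio climbs from a median of 0.0660 without shared bases to 1.59 above 60%, in control and knockout livers alike, with single pairs far above 1 at low overlap.

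In 7 pairs every exonic base of the antisense gene lies inside exons of the sense gene, and in 3 of them (Apoa5, Abhd14b and Jund) the 2 genes kept a nearly fixed proportion from liver to liver. AC164105.2 took 40.5 to 42.8% as many reads as Apoa5 across the 6 livers, while Apoa5 itself went from 501, 453 and 421 TPM in Fgf18 f/f to 169, 206 and 169 TPM in knockout livers. The ratios of TPM were 1.95, 1.99 and 2.06 in controls and 2.0, 1.97 and 2.01 in knockouts, and the log2 fold changes differed by -0.01. Of the 524 shared bases, 176 lie in coding sequence of Apoa5 and 348 beyond it on the 3′ side.

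Gm28959 took 67.6 to 69.1% as many reads as Abhd14b, all on the 3′ side of the coding sequence, and Gm11175 took 67.5 to 70.8% as many as Jund, all within coding sequence. The TPM ratios of Gm28959 to Abhd14b were 3.28, 3.35 and 3.33 in controls and 3.34, 3.32 and 3.34 in knockouts. Those of Gm11175 to Jund were 1.35, 1.33 and 1.32 in controls and 1.31, 1.31 and 1.28 in knockouts. The groups of the first pair overlapped in this ratio, and in the second the Fgf18 f/f livers were slightly above the others.

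In the other 4 pairs, Gm17035 with Ndrg1, Gm26716 with the syndecan gene Sdc3, Gm38287 with the Notch-regulated gene Nrarp and AC123830.1 with Trim34a, reads were fewer and the shares wider. Gm38287 took 77.8 to 94.6% as many reads as Nrarp, on 7 to 38 reads, and Gm17035 took 19.2 to 27.8% as many as Ndrg1, on 58 to 209 reads. AC123830.1 took 32.4 to 52.4% as many as Trim34a, on 14 to 49 reads, and Gm26716 took 7.37 to 11.4% as many as Sdc3, on 13 to 46 reads. The highest share was 1.62 and 1.54 times the lowest in these last pairs, beside 1.22 times for Gm38287 and 1.45 times for Gm17035. In all 7 pairs the antisense gene had fewer reads than the sense gene in every liver, and the log2 fold changes of the 2 genes differed by at most 0.11.

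**Figure D4:**
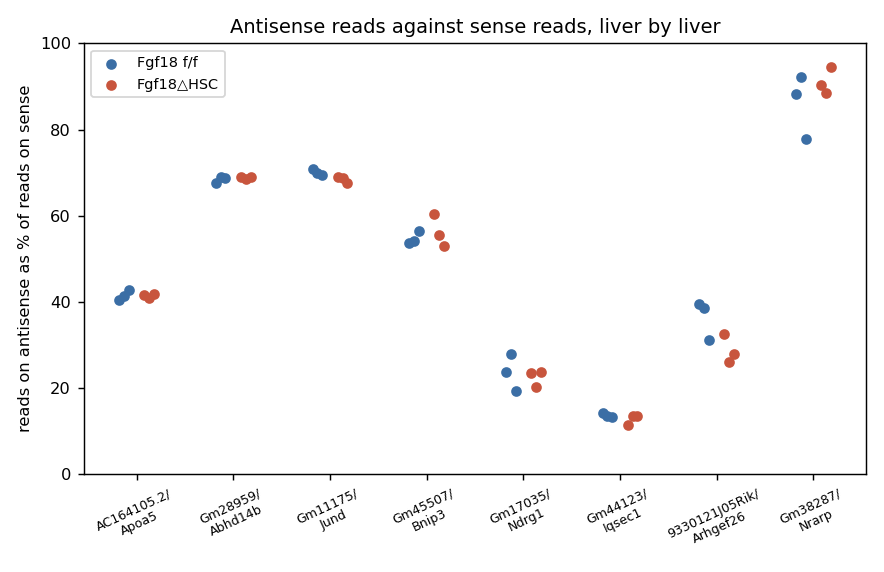
Reads on the antisense gene as a percentage of the reads on its sense partner in each liver, for 8 pairs with more than 60% of antisense exonic bases inside sense exons. Points of both groups lie close together for Apoa5, Abhd14b and Jund, with the control livers slightly higher for Jund, and spread more where reads are few. They also spread for Arhgef26, where control replicate 3 lies below knockout replicate 1, so that the groups overlap.

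A steady proportion was also seen over the wider set of pairs. At least 20 reads on both genes in every liver were found in 41 pairs. Between the highest and the lowest liver the TPM ratio of these pairs changed by a median of 1.22 times. The TPM of the sense gene changed by 2.96 times, a span that holds the difference for which it was listed. The ratio had the smaller span in all 41 pairs. Both genes of a pair were listed for a difference, nearly always in the same direction, and that difference largely cancels in the ratio. The smaller span was therefore largely fixed in advance. On the log2(TPM) scale the changes of the 2 genes differed by a median of 0.0814, by under 0.2 in 32 pairs and by more than 1 in none. The share of these reads that came from each strand was not tested.

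Pairs with a large change in both genes come next. They were picked for a shared direction and a large change in the less changed gene, so their agreement in direction was fixed in advance. The log2 fold changes lay closer in some of these pairs than in others. Gm15962 and Keg1, a glycine N-acyltransferase family gene, lie tail to tail and share 491 exonic bases, of which 172 are coding sequence of Keg1 and 319 lie between its coding exons. Gm15962 had 44.2, 44.6 and 49.3 TPM in controls and 10.5, 8.64 and 6.9 TPM in knockouts, and Keg1 had 37.5, 38.8 and 42.1 TPM in controls and 9.27, 6.98 and 6.52 TPM in knockouts (log2 fold changes -2.41 and -2.38). Gm28513 had 70.6, 61.9 and 59.1 TPM in controls and 23.1, 6.83 and 15 TPM in knockouts, and Rgs16, a regulator of G protein signalling, had 85.9, 85.1 and 79.4 TPM in controls and 29.7, 8.48 and 20.1 TPM in knockouts (log2 fold changes -2.25 and -2.27). The lowest liver of both genes was knockout replicate 2.

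Gm45507 and Bnip3 fell by 2.06 and 2.1 on the log2 scale, with Bnip3 at 114, 105 and 122 TPM in controls and 25.5, 29.9 and 24.2 TPM in knockouts. Gm15622 and Bhmt rose by 1.87 and 1.91, with Bhmt at 118, 129 and 200.1 TPM in controls and 588, 619 and 441 TPM in knockouts. In both genes of this pair control replicate 3 was the highest of its group and knockout replicate 3 the lowest of its own. Gm15622 has 12.8% of its exonic bases inside Bhmt exons.

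Among the rising pairs, Nid1 had 2.25, 2.24 and 1.87 TPM in controls and 11.2, 10.6 and 11.9 TPM in knockouts (log2 fold change 2.35), beside 2.75 for AC122465.1. Mmp7, the matrilysin gene, had 0.0699, 0.21 and 0.156 TPM in controls and 3.7, 1.04 and 3.17 TPM in knockouts and Edn1, the gene of the vasoconstrictor endothelin 1, had 0.471, 0.21 and 0.441 TPM in controls and 2.03, 1.5 and 2.67 TPM in knockouts. Gm10501 and the HSP70 family gene Hspa1l had log2 fold changes of 2.45 and 2.44, with 1778 shared exonic bases. Other HSP70 genes have similar sequences, and whether reads were shared with them was not tested. Gm15929 and Tmc4, a transmembrane channel-like gene, had 1.9 and 1.84.

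The longest shared exonic stretches were 3961 bases between Gm16638 and Tmc3, another transmembrane channel-like gene, 2617 between 1110002L01Rik and the kinesin gene Kif3c, 2189 between 9330121J05Rik and Arhgef26, 2104 between AC160411.1 and the pyridoxal kinase gene Pdxk, 2051 between Gm38287 and Nrarp, and 1878 between Gm26903 and the growth factor gene Bmp5. AC160411.1 had 7.29, 7.65 and 5.83 TPM in controls and 3.34, 2.35 and 2.77 TPM in knockouts, at ratios to Pdxk of 0.48, 0.51 and 0.53 in controls and 0.568, 0.541 and 0.531 in knockouts. In 9330121J05Rik, which overlaps the exchange factor gene Arhgef26, the ratio was 1.33, 1.3 and 1.05 in controls and 1.1, 0.873 and 0.938 in knockouts. Here the antisense gene fell further than the sense gene, by 1.64 against 1.31 on the log2 scale. Gm16638 and Tmc3, at under 0.3 TPM in every liver, were not called (log2 fold changes -0.79 and -0.81).

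Named antisense genes with a listed partner included Junos, whose first part overlaps Jun, the AP-1 founder gene of the promoter windows above. Junos (chromosome 4, 95051534 to 95167318, plus strand) had 6.38, 6.27 and 8.55 TPM in controls and 16.4, 10.3 and 18.2 TPM in knockouts (log2 fold change 1.05 ± 0.23, limma adjusted p = 0.00281). Jun had 104, 101 and 137 TPM in controls and 289, 166 and 294 TPM in knockouts (log2 fold change 1.1 ± 0.23, limma adjusted p = 0.00255), and the ratio of Junos to Jun was 0.0616, 0.0618 and 0.0623 in controls and 0.0569, 0.0621 and 0.0618 in knockouts. Both genes had the same order of livers, with knockout replicate 2 the lowest of its group, and only 5.64% of the exonic bases of Junos lie inside the exon of Jun. The call of Junos was lost in the fits without control replicate 1 (log2 fold change 0.98) or 2 (0.97) and without knockout replicate 1 (0.96) or 3 (0.89), and that of Jun without knockout replicate 1 (0.97) or 3 (0.95), each time by the fold limit.

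Igf1os and Igf1, the gene of insulin-like growth factor 1, which hepatocytes secrete under growth hormone control, share no exonic base. Igf1os (chromosome 10, 87826377 to 87863381, minus strand) had 0.716, 0.792 and 0.916 TPM in controls and 0.388, 0.351 and 0.291 TPM in knockouts (log2 fold change -1.03 ± 0.20, limma adjusted p = 0.00161). Igf1 had 59.2, 59.2 and 68.6 TPM in controls and 29.2, 37.3 and 28.2 TPM in knockouts (log2 fold change -0.99 ± 0.14, limma adjusted p = 0.000326), just short of the fold limit. The ratio was 0.0121, 0.0134 and 0.0134 in controls and 0.0133, 0.00944 and 0.0103 in knockouts, and the groups overlapped in it. Without control replicate 3 or knockout replicate 3 the log2 fold change of Igf1os was -0.95.

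Rapgef4 (Epac2), a cAMP-activated exchange factor, holds 2 listed antisense genes. Rapgef4os2, with 337 shared exonic bases, had 20.8, 20.6 and 19.8 TPM in controls and 7.06, 9.62 and 7.4 TPM in knockouts (log2 fold change -1.35 ± 0.14, limma adjusted p = 8.42e-05). Rapgef4os3, with none, had 4.26, 5.49 and 3.55 TPM in controls and 1.29, 1.22 and 1.17 TPM in knockouts (log2 fold change -1.75 ± 0.18, limma adjusted p = 8.65e-05). Rapgef4 had 41, 43.9 and 38.5 TPM in controls and 16.8, 20.1 and 16.4 TPM in knockouts (log2 fold change -1.21 ± 0.12, limma adjusted p = 7.5e-05). All 3 fell, and the ratio to Rapgef4 was 0.507, 0.47 and 0.514 in controls and 0.42, 0.478 and 0.453 in knockouts for Rapgef4os2 and 0.104, 0.125 and 0.0922 in controls and 0.0765, 0.0606 and 0.0718 in knockouts for Rapgef4os3, whose groups did not overlap.

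Peak1os rose from 0.295 ± 0.0522 to 1.48 ± 0.448 TPM (mean ± SD of 3 livers, log2 fold change 1.98) and the pseudokinase gene Peak1 from 1.59 ± 0.061 to 7.25 ± 0.845 TPM (log2 fold change 2.11). Prss23os, with 864 shared exonic bases, rose from 0.335 ± 0.0482 to 1.88 ± 0.501 TPM and the serine protease gene Prss23 from 0.26 ± 0.0743 to 1.15 ± 0.231 TPM (log2 fold changes 2.16 and 1.8). Plet1os rose from 0.766 ± 0.196 to 3.31 ± 0.235 TPM and Plet1, a placenta-expressed surface protein gene that it spans, from 1.5 ± 0.378 to 5.37 ± 0.178 TPM (log2 fold changes 2.0 and 1.8). In each of these 3 pairs the livers of the groups did not overlap in either gene. Far1os and Far1, a fatty acyl-CoA reductase gene, had log2 fold changes of 1.34 and 1.0, on 1 to 11 reads of Far1os per liver, and Far1 missed the limit without control replicate 1 (0.74) and without knockout replicate 2 (0.96) or 3 (0.97). Srrm4os and the splicing regulator gene Srrm4 had 0.94 and 1.23, with Srrm4os not called.

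Both pairs with opposite directions had the antisense gene inside the sense gene. Gm32872 had 0.729, 0.876 and 2.44 TPM in controls and 3.29, 4.47 and 3.45 TPM in knockouts (log2 fold change 1.58 ± 0.39, limma adjusted p = 0.00509), on 4, 4 and 9 reads in the control livers and 14 reads in each Fgf18△HSC liver. Cabcoco1, a gene of a calcium-binding ciliary protein, had 1.21, 1.42 and 1.36 TPM in controls and 0.153, 0.83 and 0.24 TPM in knockouts (log2 fold change -1.73 ± 0.44, limma adjusted p = 0.00565). The groups did not overlap in either gene. They share 54 exonic bases, and the ratio was 0.601, 0.616 and 1.79 in controls and 21.5, 5.39 and 14.4 in knockouts.

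AC117245.4 (chromosome 9, 119983146 to 119988092, plus strand) lies inside Cx3cr1, the fractalkine receptor gene of monocytes and macrophages, with no shared exonic base, and overlaps Csrnp1, a gene of a nuclear protein, head to head with 224. It had 1.76, 1.32 and 1.22 TPM in controls and 0.828, 0.516 and 0.705 TPM in knockouts (log2 fold change -0.97, not called). Csrnp1 had 38.1, 34.4 and 31.2 TPM in controls and 18.1, 11.9 and 17.4 TPM in knockouts (log2 fold change -1.14), and Cx3cr1 had 0.0663, 0.0697 and 0.0123 TPM in controls and 0.342, 0.16 and 0.359 TPM in knockouts (log2 fold change 1.35). The antisense gene thus went the way of Csrnp1, at a ratio of 0.0462, 0.0383 and 0.0392 in controls and 0.0457, 0.0435 and 0.0405 in knockouts, and not the way of Cx3cr1. The listed Kupffer cell and macrophage markers were higher in knockout livers, as given above, and their part in the value of Cx3cr1 was not tested. With the rescaling 4 pairs were opposite, because the sense genes Rasip1 and Iqgap1 came to lie just below 0.

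**Figure D5:**
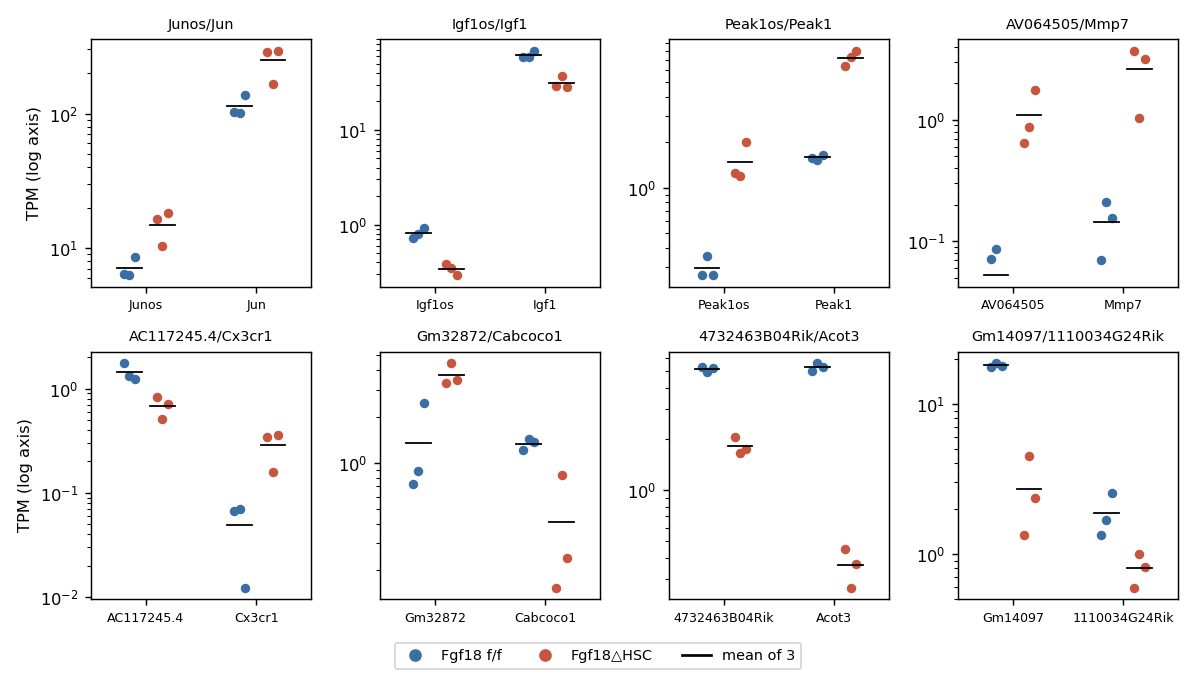
TPM (log axis) of the antisense gene and its sense partner in each liver of 8 pairs, Fgf18 f/f in blue and Fgf18△HSC in red, with the mean of 3 livers as a line (AV064505 was 0 in 1 Fgf18 f/f liver, which has no point). The upper 4 pairs move together, AC117245.4/Cx3cr1 and Gm32872/Cabcoco1 move apart, and in the last 2 pairs both genes fall by unequal amounts.

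Besides these 2, the log2 fold changes differed by more than 1 in 6 pairs of the same direction. This count depends on the added 0.1 TPM. From the group means without it, 9 of the 100 pairs differed by more than 1, 3 had no value because a mean was 0, and 5 of the 8 pairs were among the 9. In the other 4 the antisense gene was at most 0.0454 TPM on average in the controls, with a liver at 0 reads. Acot3, a peroxisomal acyl-CoA thioesterase gene, went from 5.04, 5.59 and 5.26 to 0.449, 0.267 and 0.368 TPM, while 4732463B04Rik, head to head with it, went from 5.33, 4.98 and 5.21 to 2.04, 1.65 and 1.74 TPM (log2 fold changes -3.57 and -1.47). The 2 genes were level in the control livers, and the antisense gene was the higher one in all Fgf18△HSC livers, at a ratio of 4.54, 6.2 and 4.74. The same antisense gene lies tail to tail with another thioesterase gene, Acot4, with 615 of its 2932 exonic bases inside Acot4 exons against 312 inside those of Acot3. There the changes were closer, at -1.47 and -1.22 on the log2 scale, and the ratio was 0.835, 0.722 and 0.775 in controls and 0.655, 0.668 and 0.603 in knockouts. Ppp1r3g, a glycogen-targeting subunit of protein phosphatase 1, went from 11.8, 10.3 and 10.9 to 1.7, 0.972 and 1.2 TPM and AC134860.4 from 1.07, 1.19 and 0.908 to 0.148, 0.268 and 0.31 TPM (log2 fold changes -3.03 and -1.78, which differ by 0.96 without the added 0.1 TPM).

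In the other direction, Gm14097 fell further than its host 1110034G24Rik (Shld1), a shieldin subunit gene of DNA repair, from 17.5, 18.7 and 17.8 to 1.33, 4.46 and 2.37 TPM against 1.34, 1.67 and 2.54 to 0.592, 0.989 and 0.812 TPM (log2 fold changes -2.84 and -1.1). Gm14097 was the higher gene of the pair in every liver. Gm4117, under 0.1 TPM in every liver, and Vcan, the proteoglycan gene versican, had log2 fold changes of 0.33 and 1.83. Without the added 0.1 TPM, the mean in knockouts was 2.58 times that in controls for Gm4117, whose groups overlapped, and 5.27 times for Vcan. AC104200.1 and the coagulation factor XIII gene F13a1 had 1.6 and 2.64, AC104200.1 on 3, 1 and 2 reads in controls and 15, 3 and 26 in knockouts. The difference in this pair is absent without the added 0.1 TPM, since the ratio of the group means was 0.152 in controls and 0.152 in knockouts. Gm42884, at 0 reads in each Fgf18 f/f liver and 5, 4 and 7 reads in the knockout livers, was at least 2.07-fold higher against a floor of 3 reads per liver, while Clip2, a microtubule linker gene, had a log2 fold change of 0.96, short of the limit. These 8 pairs were picked for their differences, which are given without a test.

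A high antisense level at low overlap was seen in Gm43401, head to head with the leucine-rich repeat gene Lingo4. Gm43401 had 43.2, 38 and 42.3 TPM in controls and 17.4, 10.1 and 18.3 TPM in knockouts and Lingo4 0.594, 0.714 and 0.685 TPM in controls and 0.344, 0.198 and 0.347 TPM in knockouts, and 20.1% of the exonic bases of Gm43401 lie inside Lingo4 exons. In the 6 livers the antisense gene was at 50.5 to 72.7 times the level of Lingo4.

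Other genes of the pathways that these loci belong to were read from lists. In the Kcnq1 imprinted domain 3 of 15 genes were listed. Besides Kcnq1ot1, the placental growth repressor gene Phlda2 went from 2.07 ± 0.756 to 0.92 ± 0.18 TPM (log2 fold change -1.05) and the TNF receptor family gene Tnfrsf26 from 0.137 ± 0.0197 to 0.736 ± 0.365 TPM (log2 fold change 1.74), so that 1 of the 3 was called higher and 1 lower. Kcnq1 itself is not listed. Of 15 liver transcription factors 4 were listed, all lower, and Cebpb (log2 fold change -1.35) and Onecut1 (-1.29) were called, while Cebpa (-0.99) and Gata6 (-0.96) were not.

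Cebpa, a driver of hepatocyte metabolism, had 113, 101 and 95.5 TPM in controls and 53.9, 52.2 and 49 TPM in knockouts. Its head-to-head antisense gene Gm45091 had 54.3, 49.6 and 36.2 TPM in controls and 17.7, 19.2 and 19.6 TPM in knockouts (log2 fold change -1.29), with a ratio of 0.482, 0.491 and 0.379 in controls and 0.328, 0.368 and 0.399 in knockouts. Of 12 genes of the insulin-like growth factor system 7 were listed, and Igfbp4 (-1.31), Igfals (-1.31) and Igfbp5 (-2.0) were called lower and Igfbp3 (1.55), the main serum carrier of IGF1, higher. Igf1, Igf1r and Igfbp6 were not called.

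Of 9 AP-1 genes 5 were listed and called. Jun (1.1) and Fosl1 (2.34) rose, and Fosb (-2.78), Batf (-1.23) and Jund (-1.02) fell. The antisense genes at Jun and Jund went the same way as their sense genes, up for Junos (1.05) and down for Gm11175 (-1.05).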

How the data were processed

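RNA-seq was made from whole livers of 3 Fgf18 f/f and 3 Fgf18△HSC mice. According to the study's methods and the submitters' processing notes, the authors prepared stranded mRNA libraries, trimmed reads with cutadapt 2.5, aligned them to GRCm38 (mm10) with HISAT2 2.1.0, counted reads on genes (featureCounts 1.6.3) and ran DESeq2. They deposited 1 table of values per gene and liver for 3201 genes, with the log2 fold change, p-value and adjusted p-value of their own comparison, which were read only to test the selection of the table (smallest absolute log2 fold change 1.00, largest p-value 0.05) and otherwise not used. The deposited values were taken as TPM, that is, reads per gene length scaled to one total per library, although neither the table nor the methods name the unit or how the authors computed it. Multiplying by the joined exon length returned whole reads (tolerance 0.02 reads) in 92.2 to 93.1% of entries under 5000 reads, depending on the liver. It did so in all 6 livers for 2940 genes. The values are thus reads per exon length times a constant for each library. That check cannot tell TPM from another unit of this form, so the name TPM is an assumption. Reads recovered on the listed genes numbered 3148785 to 4852001 in Fgf18 f/f and 1574331 to 2094293 in Fgf18△HSC livers. The library totals are unknown, so no interval was computed, and few reads limit the precision of low genes.

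Exons, strands and gene types came from GENCODE M21 (GRCm38), which matched 3196 of the 3201 genes. A partner was a protein-coding gene on the opposite strand whose body overlapped by at least 1 base. Groups were compared with limma 3.58.1 in R 4.3.3 (lmFit, eBayes with trend) on log2(TPM + 0.1) over all 3201 genes, without a block and unfiltered, and p-values were adjusted by Benjamini-Hochberg. A simulated table with 200 of 3201 genes changed by a fold of 4 was tested first, and 183 were recovered with 3 false calls. The voom alternative recovered 174 of 200 among 2940 genes, with 3 false calls. Summaries were made in Python 3.11.15.

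Genes were named by a rule: names built on a coding gene, the 8 largest rises and falls among called genes with groups that do not overlap and 1 TPM or more on average in 1 of the groups, pairs of opposite direction, the 10 pairs of the same direction with the largest smaller change, the 6 pairs with most shared exonic bases, and members of the lists. The most abundant genes, the fully overlapped pairs, the pairs that differ by more than 1, Gm43401, Gm45091 and Tug1 lie outside it and were chosen after their values were seen. The genes and lists were chosen with earlier results of these data known. The livers are separate animals by the labels and the methods, and the replicate numbers do not pair them. Alternatives were other pseudocounts, a filter on low values, rescaled livers, no trend, the replicate number as a block, each liver left out, limma-voom on recovered reads, no fold limit and other definitions of a partner.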

Additional observations from a re-analysis of the deposited data

How the results depend on the processing

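The number of antisense RNA genes called higher, 76, was 18 with a pseudocount of 1, 36 with a mean of at least 1 TPM and 21 after median-ratio rescaling of the livers, and the number called lower, 71, was 36 with a pseudocount of 1. Of the sense partners 45 were called higher, and 16, 26 and 7 under the same 3 settings. Pairs with both genes called in the same direction, 77, were 32 with a pseudocount of 1. Pairs of the same direction, 98, were 59 with a mean of at least 1 TPM, which leaves 59 pairs and 0 of opposite direction, and opposite pairs, 2, were 4 after rescaling and 1 where a shared exonic base was required. A pseudocount of 1 shrinks fold changes of low genes, and the filter leaves fewer genes. The rescaling took its factors from the listed genes alone, all selected for a difference and with a median log2 fold change of 0.877. It moved their log2 fold changes by a median of -0.875, close to the removal of that median. With each liver left out in turn, 68 to 76 antisense RNA genes were called higher and 63 to 72 lower, and 68 to 77 pairs had both genes called in the same direction. With the replicate number as a block, 76 antisense RNA genes were called higher, 71 lower and 77 pairs in both genes, and no call of a named gene changed. Same-numbered livers did not deviate together (correlations 0.0574, 0.00597 and 0.0307), and not every liver correlated best with its own number. No antisense RNA gene changed sign under any alternative, and 2 sense genes did after rescaling. Among the named genes 27 lost their call with a pseudocount of 1 and 23 after rescaling, and limma-voom on recovered reads called 84 antisense RNA genes higher and 77 lower. Depth limits the genes at a few reads, 15 of which had under 10 reads in every liver.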
